A study of Mus musculus with 12 samples.

Results

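The 44 collagen genes of the mouse, those whose symbols name an alpha chain of a numbered collagen, were followed for non-CG methylation (mCH) of the gene body in cortex. mCH is the methylation of cytosines that no guanine follows. The genes were taken by symbol alone, with the transcript of most calls standing for each gene and a minimum of 500 calls in every library, and all 44 passed among 19826 genes tested. The nearest to that minimum was Col10a1, with 2595 calls in its shallowest library, so no collagen gene lay outside it. The genes were split into 11 fibrillar, 8 basement membrane, 3 neural-expressed, 8 FACIT (fibril-associated), 6 type VI and 8 other collagens. The split follows the protein they encode, except for the 3 neural-expressed genes. These were set apart by expression known from elsewhere, which was not measured here, and are not a protein family.

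DNA of whole cortex of C57BL/6 mice was bisulfite sequenced in 12 libraries. In this assay an unmethylated cytosine is read as thymine, and the level of a gene is its methylated non-CG calls as a percent of all its non-CG calls. The groups were miR29 knockout (KO) cortex at postnatal day 40 (P40, 4 libraries), wild-type (WT) cortex at P40 (4 libraries), Dnmt3a mi5 cortex at 4 months (2 libraries) and WT cortex at 4 months (2 libraries). Dnmt3a is the gene of a DNA methyltransferase, and the allele name mi5 is used here unexplained, as in the labels; titles of those samples read DNMT3AmiR29MUT and those of their WT read DNMT3AWT. Which miR-29 genes the KO lacks, in which cells, and what the mi5 allele changes are not given in the labels. Whether replicates come from different animals is not given either, and p-values here stand for the variation among samples, which may be technical. Only DNA methylation was measured, so neither the tissue nor the expression of collagens could be checked here, and whether collagen transcripts are targets of miR-29 in these samples was not analysed here.

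Collagens are secreted proteins whose chains wind into a triple helix. Fibrillar collagens build the fibres of skin, bone and vessel walls, type IV collagen forms the network of basement membranes, which in brain surround the blood vessels, and a few collagens with a membrane anchor or a short helix are made by neurons. The microRNAs of the miR-29 family are known to repress transcripts of fibrillar and type IV collagens, and also that of Dnmt3a, the enzyme that deposits mCH in neurons as the brain matures. In neurons mCH builds up over gene bodies after birth and tends to be higher over genes that neurons do not express.

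The mature miR-29 sequences (RefSeq, GRCm38.p6 table) are shown because the seed, bases 2 to 8 from the 5′ end, is what ties collagen transcripts and Dnmt3a to one family. The capitals mark the seed, and U is written as in RNA.
miR-29a-3p (Mir29a, chromosome 6): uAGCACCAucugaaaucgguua
miR-29b-3p (Mir29b-1, chromosome 6, and Mir29b-2, chromosome 1): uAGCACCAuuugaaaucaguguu
miR-29c-3p (Mir29c, chromosome 1): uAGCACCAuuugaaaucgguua
The 3 sequences carry the same 7-base seed and differ only outside it.

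Summed over the 4 miR-29 genes, KO libraries held 6 to 69 calls, against 121 to 244 in WT at P40, while mi5 libraries held 106 to 129, against 151 to 200 in WT at 4 months. Libraries held 399563492 to 732985426 calls over 23882 named genes. In 4 libraries, namely KO library 3, WT library 2 at P40, mi5 library 1 and WT library 2 at 4 months, Y-linked genes had 1.01 to 2.03 calls per 1000000 calls, against 40.5 to 47.7 in the other 8. Mean levels over all genes tested were 2.16% ± 0.316 in KO and 1.39% ± 0.124 in WT at P40 (SD, n = 4 each), and 2.33% ± 0.0306 in mi5 and 1.32% ± 0.00564 in WT at 4 months (SD, n = 2 each). The median gene, collagen or not, was thus far from level between genotypes, and changes of collagen genes are given both as measured and after centring each library on its median gene.

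In WT cortex collagen genes carried more mCH than most genes. Their median level over both WT groups was 1.98%, against 1.28% for all genes tested. Ranked among all genes by WT level, they lay between the 43.7th and the 98.7th percentile, with a median rank of 80.3. Of the 44, 42 lay above the median gene and 8 in the top decile, namely Col27a1, Col15a1, Col6a3, Col18a1, Col9a1, Col5a1, Col23a1 and Col25a1.

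Col27a1, a fibrillar collagen of cartilage, was highest with a mean WT level of 3.0%. It stood at 2.70%, 3.41%, 3.07% and 2.70% in the WT libraries at P40 and at 2.92% and 3.13% in those at 4 months. Next came Col15a1, a heparan and chondroitin sulfate collagen of the basement membrane zone, and Col6a3, the long chain of the type VI microfibril, both at 2.58%. These 2 did not differ beyond their spread: at P40 the WT mean was 2.70% ± 0.247 for Col15a1 and 2.66% ± 0.400 for Col6a3 (SD, n = 4). Below them Col18a1, Col9a1, Col5a1, Col23a1 and Col25a1 followed each other within 2.32% and 2.43%, closer than the SD of any of them at P40.

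Col2a1, the collagen of cartilage fibrils, was the lowest at 1.13%. Its WT libraries read 1.01%, 1.23%, 1.15% and 0.942% at P40 and 1.07% and 1.29% at 4 months. Col7a1, which anchors epidermis to dermis, followed at 1.23%, and Col6a1, a short chain of type VI collagen, at 1.32%. Neither differed from its neighbour in this order by more than the SD between libraries at P40 plus that of its neighbour.

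**Figure D1:**
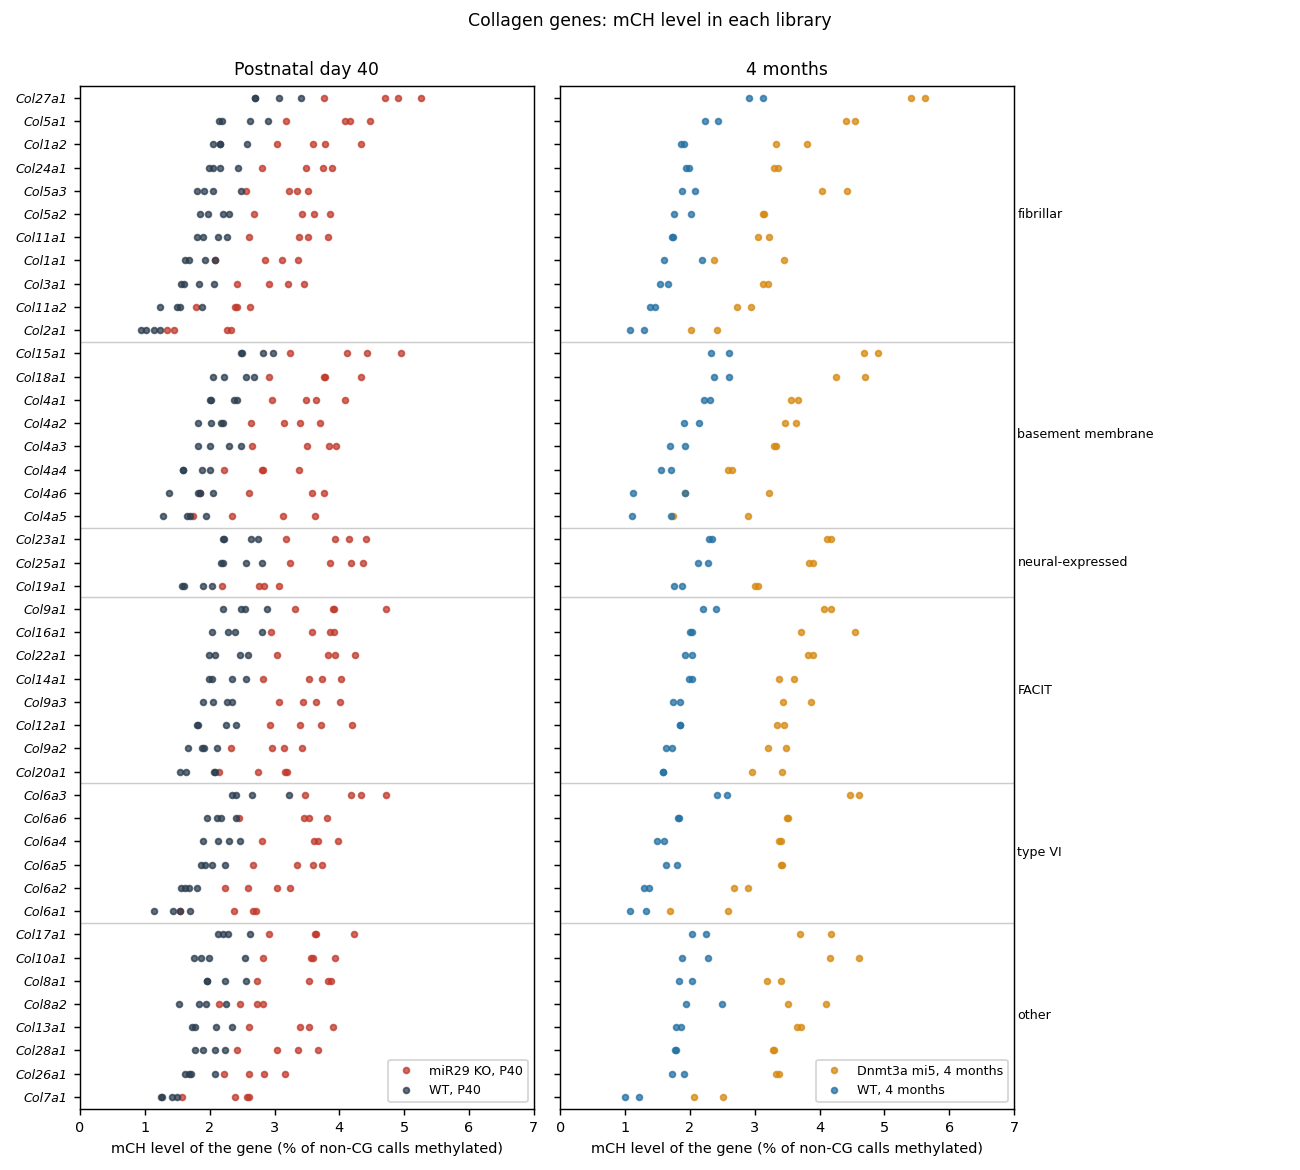
mCH level of each collagen gene in each library, with genes in rows by class and ordered by WT level. KO and WT at P40 are on the left, and mi5 and WT at 4 months on the right. Each point is 1 library, and the axis is the percent of non-CG calls methylated. Mutant points lie to the right of WT points in nearly every row, with overlap at P40 for Col1a1, Col11a2, Col4a5, Col4a6, Col6a1 and Col8a2 and at 4 months for none.

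The order of the genes was much the same in both WT groups. Over the 44 genes the WT level at 4 months and at P40 were correlated (Pearson r 0.90, Spearman rho 0.84). Both groups share sequence and annotation but no library. The number of calls went only weakly with level (r 0.36, rho 0.27 over the same 44 genes). Mean calls per library ran from 3903 for Col10a1 to 248964 for Col25a1. The counting error differs accordingly: in WT library 1 at P40 the level of Col10a1 was 1.76% with a 95% Wilson interval of 1.40% to 2.21%, and that of Col25a1 was 2.21% with an interval of 2.16% to 2.26%. These intervals cover counting error only.

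Among the classes the neural-expressed collagens were highest in WT, with a median of 2.32% over 3 genes. The fibrillar median was 1.98% over 11 genes and the basement membrane median 2.01% over 8. FACIT genes had a median of 2.04%, type VI genes 1.87% and the other collagens 1.98%. Ranges within classes were wider than the distance between classes, since fibrillar genes alone ran from 1.13% to 3.0%.

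The first comparison asked whether loss of miR-29 was accompanied by a change of mCH over collagen genes at P40. All 44 rose in KO cortex past an adjusted p of 0.05 (quasi-binomial model over all genes, Benjamini-Hochberg adjusted). Of all genes tested, 76.5% rose and 0.0454% fell in the same comparison. Collagen genes had more calls, with a median of 67095 mean calls per library against 11244 over all genes. Their counting error is thus smaller, and shares called or without overlap are not like for like with those of all genes, here and at 4 months. The mean collagen level was 3.29% ± 0.485 in KO and 2.06% ± 0.214 in WT (SD, n = 4 each), which is 1.23 points or 1.60 times higher. Over all genes the difference was 0.770 points and the ratio 1.56. By library the collagen mean was 3.77%, 3.48%, 3.26% and 2.63% in KO and 1.89%, 2.32%, 2.15% and 1.87% in WT. KO library 4 was the lowest of its group and still above the highest WT library. In 38 of the 44 genes every KO library lay above every WT library, which held for 57.1% of all genes.

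The median log2 odds ratio of the collagen genes was 0.70, against 0.65 over all genes tested, with a range of 0.44 to 0.82. The largest belonged to Col12a1, a FACIT collagen that decorates fibrils. It stood at 4.20%, 3.71%, 3.39% and 2.93% in KO and at 1.82%, 2.40%, 2.25% and 1.80% in WT. The groups did not overlap, and the log2 odds ratio was 0.82 (SE 0.13, adjusted p = 5.71e-05, quasi-binomial model with limma moderation). Col3a1, the fibrillar collagen of vessels and soft tissue, came next with 0.80 (SE 0.13), and Col13a1, a transmembrane collagen found at the neuromuscular junction, with 0.79 (SE 0.13). Col13a1 read 3.90%, 3.53%, 3.39% and 2.60% in KO and 1.72%, 2.35%, 2.09% and 1.77% in WT, without overlap.

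The smallest rise belonged to Col8a2, a short-chain collagen of the corneal Descemet membrane. It stood at 2.74%, 2.82%, 2.47% and 2.15% in KO and at 1.83%, 2.25%, 1.95% and 1.53% in WT. KO library 4 lay below WT library 2, so the groups overlapped, and the log2 odds ratio was 0.44 (SE 0.13, adjusted p = 0.00472). Col16a1, a FACIT collagen, and Col11a2, a minor fibrillar chain of cartilage, both had 0.61 (SE 0.11 and 0.14). Col16a1 read 3.92%, 3.85%, 3.57% and 2.94% in KO and 2.28%, 2.81%, 2.40% and 2.04% in WT, and Col11a2 read 2.62%, 2.43%, 2.38% and 1.78% in KO and 1.23%, 1.89%, 1.54% and 1.49% in WT. Only Col11a2 overlapped, through KO library 4 and WT library 2.

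The 5 genes whose transcripts are best known as miR-29 targets, rose with the rest. Col1a1, which encodes the alpha1 chain of type I collagen, stood at 3.36%, 3.12%, 2.86% and 2.08% in KO and at 1.68%, 2.08%, 1.92% and 1.62% in WT. KO library 4 and WT library 2 met at 2.08%, the other KO libraries lay above, and the log2 odds ratio was 0.66 (SE 0.16, adjusted p = 8.82e-04). Col1a2, its partner chain, read 4.33%, 3.78%, 3.59% and 3.03% in KO and 2.05%, 2.57%, 2.16% and 2.16% in WT, without overlap and with a log2 odds ratio of 0.76 (SE 0.12). Col3a1 read 3.46%, 3.22%, 2.91% and 2.42% in KO and 1.60%, 2.06%, 1.83% and 1.56% in WT, again without overlap.

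Col4a1 and Col4a2, the 2 chains of type IV collagen in vascular basement membrane, both rose. Col4a1 stood at 4.09%, 3.63%, 3.49% and 2.97% in KO and at 2.01%, 2.38%, 2.43% and 2.01% in WT. Col4a2 stood at 3.70%, 3.15%, 3.39% and 2.64% in KO and at 2.02%, 2.20%, 2.18% and 1.82% in WT. Neither overlapped, and the log2 odds ratios were 0.71 and 0.68 (SE 0.11 each). The 5 genes together had a median log2 odds ratio of 0.71, close to the 0.70 of all collagens and the 0.65 of all genes.

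By class the fibrillar genes had a median log2 odds ratio of 0.73 (11 of 11 called), the basement membrane genes 0.69 (8 of 8) and the neural-expressed genes 0.71 (3 of 3). FACIT genes had 0.68, type VI genes 0.70 and the others 0.69, with every gene called in each. Col23a1, a transmembrane collagen of neurons, stood at 4.41%, 4.14%, 3.94% and 3.17% in KO and at 2.21%, 2.74%, 2.64% and 2.21% in WT. Col25a1, the transmembrane collagen first isolated from amyloid plaques, read 4.36%, 4.18%, 3.85% and 3.24% in KO and 2.21%, 2.81%, 2.56% and 2.18% in WT. Both had a log2 odds ratio of 0.71 (SE 0.11), and no KO library fell to the level of a WT library.
Col19a1, which hippocampal and cortical interneurons make and which acts in the formation of inhibitory synapses, lay lower. It stood at 3.07%, 2.83%, 2.76% and 2.19% in KO and at 1.57%, 2.03%, 1.90% and 1.60% in WT, without overlap, and its log2 odds ratio was 0.64 (SE 0.12).

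Among the highest and lowest genes of the remaining classes, Col27a1 read 5.27%, 4.90%, 4.71% and 3.77% in KO against the WT levels above, and Col15a1 read 4.94%, 4.43%, 4.12% and 3.23% in KO and 2.50%, 2.98%, 2.82% and 2.48% in WT. Col6a3 read 4.71%, 4.33%, 4.18% and 3.47% in KO and 2.41%, 3.23%, 2.65% and 2.35% in WT. In these 3 high genes the KO libraries cleared the WT libraries.
Col9a1, a FACIT collagen of cartilage, read 4.72%, 3.91%, 3.90% and 3.32% in KO and 2.54%, 2.89%, 2.48% and 2.21% in WT. Col17a1, the transmembrane collagen of hemidesmosomes, read 4.22%, 3.64%, 3.63% and 2.92% in KO and 2.13%, 2.62%, 2.28% and 2.21% in WT. Col20a1, the lowest FACIT gene, read 3.19%, 3.15%, 2.74% and 2.14% in KO and 1.54%, 2.09%, 2.06% and 1.63% in WT. In none of the 3 did the groups overlap, though KO library 4 of Col20a1 came close to WT library 2.
At the low end Col2a1 read 2.33%, 2.27%, 1.45% and 1.35% in KO, so 2 of its 4 KO libraries stood little above the highest WT library at 1.23%. Col7a1 read 2.61%, 2.58%, 2.38% and 1.58% in KO and 1.25%, 1.42%, 1.50% and 1.26% in WT, without overlap. Col6a1 read 2.38%, 2.71%, 2.67% and 1.55% in KO and 1.43%, 1.69%, 1.54% and 1.14% in WT, and KO library 4 lay below WT library 2.

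**Figure D2:**
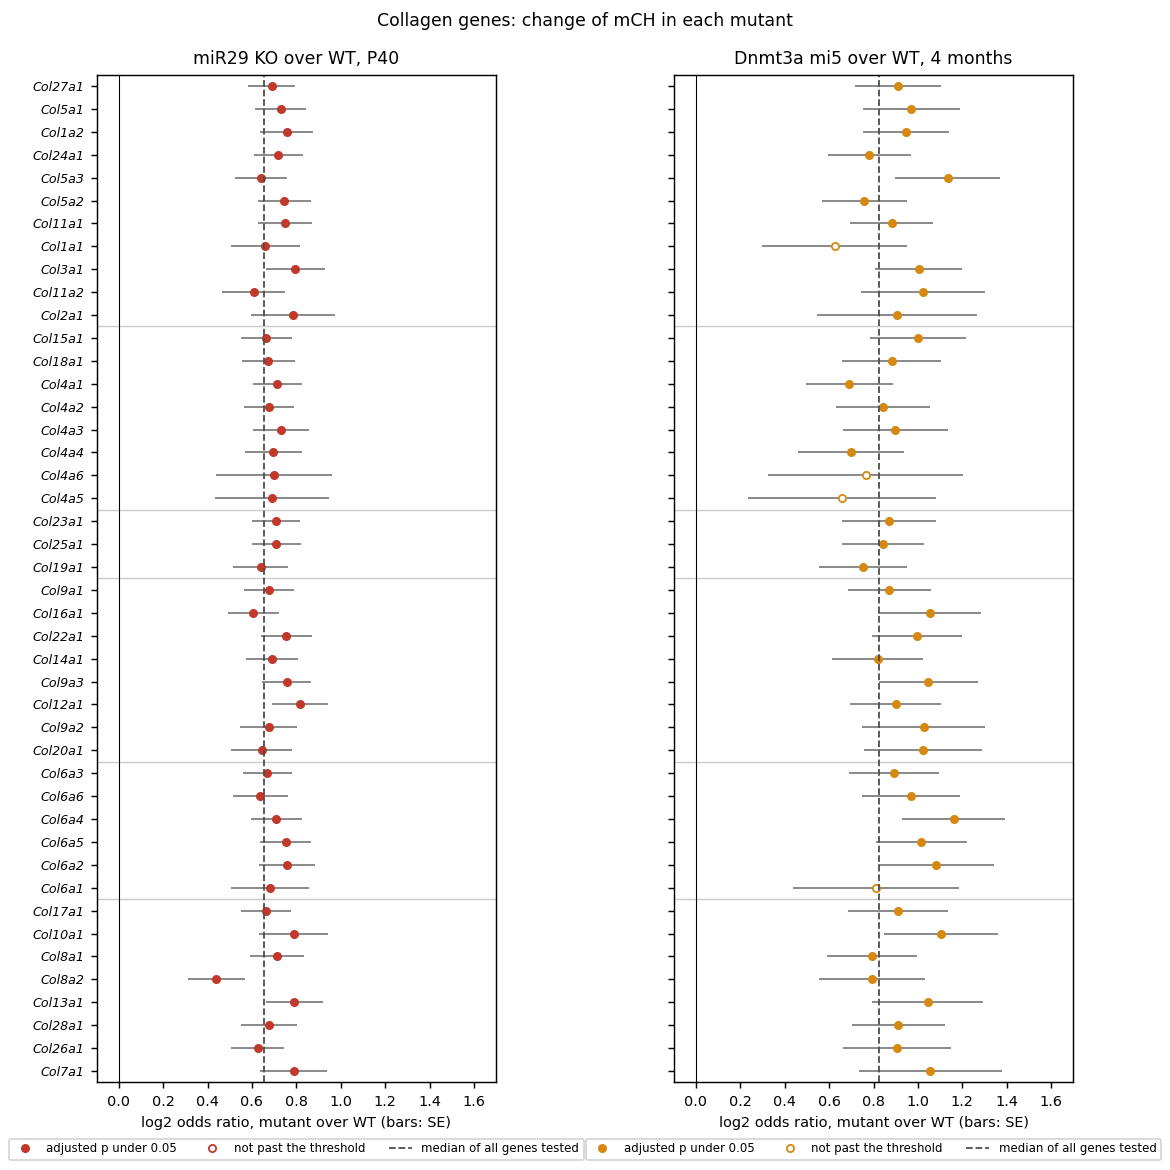
log2 odds ratio of mCH of each collagen gene, KO over WT at P40 on the left and mi5 over WT at 4 months on the right, with bars of 1 SE; the dashed line is the median of all genes tested, and gray lines part the classes in the order fibrillar, basement membrane, neural-expressed, FACIT, type VI and other. The points scatter around the dashed line, and the 4 open points at 4 months are Col1a1, Col4a5, Col4a6 and Col6a1.

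After centring, no collagen gene passed the threshold at P40 in either direction (quasi-binomial model), where 1.0% of all genes were higher and 3.59% lower. An unadjusted p under 0.05 in that model was found for 4 of the 44, against 4095 of all 19826 genes. The centred log2 odds ratios of the 44 had a median of 0.02 and ran from -0.25 for Col8a2 to 0.13 for Col12a1. The adjusted p was 0.0898 for Col8a2 and 0.0917 for Col12a1. With limma on percent levels in place of odds, 29 of the 44 were higher after centring, where 24.2% of all genes were higher and 32.9% lower.

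On the percent scale the rise of a collagen gene went with its level. Over the 44 genes the rise at P40 in points and the level in WT at 4 months, libraries that the comparison did not use, had an r of 0.65 and a rho of 0.63; with the log2 odds ratio in place of points, r was -0.25 and rho -0.25. All genes showed the same course. In deciles of genes by that WT level, the median rise went from 0.0789 points in the lowest decile to 1.44 points in the highest. The 8 collagens in the highest decile had a median rise of 1.47 points, the 11 in the ninth had 1.30 against 1.31 for all genes, and the 14 in the eighth had 1.31 against 1.20. In log2 odds ratios the deciles from the fifth up lay between 0.67 and 0.72, and the collagens in them between 0.68 and 0.79.

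**Figure D3:**
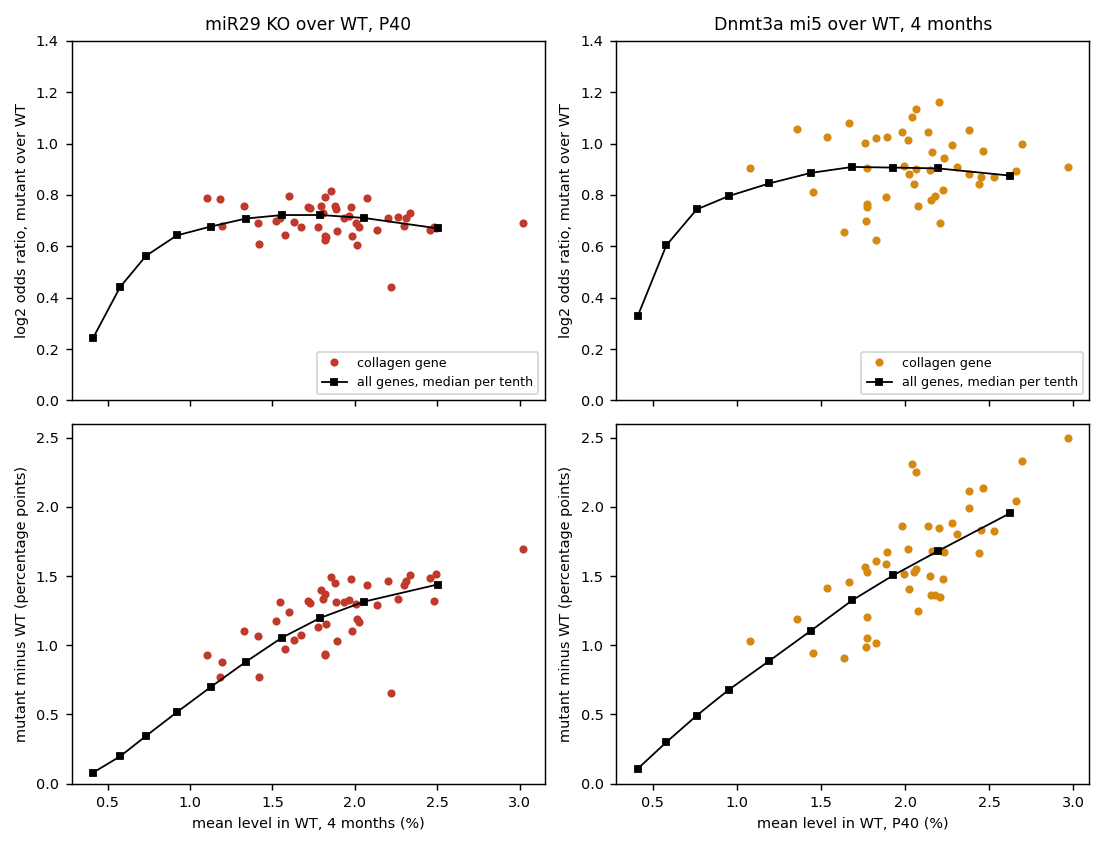
Change of each collagen gene against its level in the WT group that the comparison did not use, as log2 odds ratio (upper row) and in percentage points (lower row), at P40 (left) and 4 months (right); black squares are medians of all genes by decile of level . In points the collagens climb with level along the squares, up to 1.69 at P40 and 2.50 at 4 months for Col27a1, and as log2 odds ratios they lie around a flat stretch of the squares.

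The second comparison asked the same of Dnmt3a mi5 cortex at 4 months. Of the 44 genes, 40 rose past the threshold (58.8% of all genes rose), and in all 44 both mi5 libraries lay above both WT libraries, as in 86.2% of all genes. The mean collagen level was 3.49% ± 0.0538 in mi5 and 1.89% ± 0.0126 in WT (SD, n = 2 each), which is 1.61 points or 1.85 times higher, against 1.01 points and 1.77 times over all genes. By library it was 3.53% and 3.46% in mi5 and 1.88% and 1.90% in WT. The median log2 odds ratio was 0.90, against 0.83 over all genes, and the genes ran from 0.63 to 1.16. Leaving out each library in turn kept the collagen median at 0.90 to 0.95. The calls at 4 months rest on 2 libraries a group. With 1 of them left out the spread of a group could not be estimated from its own libraries, and calls of such fits are left out here.

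Col6a4, a chain of type VI collagen, had the largest odds ratio. It stood at 3.41% and 3.38% in mi5 and at 1.49% and 1.60% in WT (log2 odds ratio 1.16, SE 0.23, adjusted p = 0.003, quasi-binomial model). Col5a3, a minor fibrillar chain, read 4.42% and 4.04% in mi5 and 1.88% and 2.08% in WT (1.13, SE 0.24). Col10a1, the collagen of hypertrophic cartilage, read 4.61% and 4.16% in mi5 and 2.28% and 1.88% in WT (1.10, SE 0.26).
At P40 the log2 odds ratios were 0.71 for Col6a4, 0.64 for Col5a3 and 0.79 for Col10a1.
Col6a4 read 3.98%, 3.67%, 3.61% and 2.81% in KO, Col5a3 read 3.52%, 3.23%, 3.35% and 2.57% in KO against 2.05%, 2.48%, 1.92% and 1.81% in WT, and Col10a1 read 3.93%, 3.56%, 3.60% and 2.83% in KO against 1.76%, 2.54%, 1.99% and 1.87% in WT. The gene of Col10a1 overlaps another protein-coding gene, Nt5dc1, and calls in the overlap cannot be told apart.

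The 4 genes that did not pass were Col1a1, Col4a5, Col4a6 and Col6a1. Col1a1 stood at 3.45% and 2.37% in mi5 and at 2.19% and 1.60% in WT, so the lower mi5 library lay just above the higher WT library (log2 odds ratio 0.63, SE 0.33, adjusted p = 0.101). Col6a1 stood at 2.58% and 1.69% in mi5 and at 1.32% and 1.07% in WT (0.81, SE 0.37, adjusted p = 0.0673). In both genes the mi5 libraries still lay above the WT libraries.

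Col4a1 had the smallest rise among the called genes, with 3.66% and 3.56% in mi5 and 2.31% and 2.22% in WT (0.69, SE 0.20, adjusted p = 0.00709). Col4a2 read 3.47% and 3.64% in mi5 and 1.91% and 2.14% in WT (0.84, SE 0.21). Of the other well-known targets, Col1a2 read 3.80% and 3.32% in mi5 and 1.85% and 1.91% in WT, and Col3a1 read 3.21% and 3.12% in mi5 and 1.67% and 1.54% in WT. Every one of these mi5 values exceeded every WT value of its gene. The 5 target genes had a median log2 odds ratio of 0.84, beside 0.90 for all collagens and 0.83 for all genes.

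By class 10 of 11 fibrillar genes were called with a median log2 odds ratio of 0.91, 6 of 8 basement membrane genes with 0.80, 3 of 3 neural-expressed genes with 0.84, 8 of 8 FACIT genes with 1.01, 5 of 6 type VI genes with 0.99 and 8 of 8 others with 0.91. Col23a1 stood at 4.12% and 4.17% in mi5 and at 2.34% and 2.29% in WT, Col25a1 at 3.84% and 3.90% in mi5 and 2.12% and 2.28% in WT. Col19a1 read 3.04% and 3.0% in mi5 and 1.75% and 1.88% in WT. Col27a1 reached the highest level of any collagen gene, 5.42% and 5.62% in mi5, with 2.92% and 3.13% in WT.

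The genes with the largest and smallest changes at P40 were also followed at 4 months. Col12a1 read 3.35% and 3.46% in mi5 and 1.85% and 1.85% in WT, a log2 odds ratio of 0.90 (SE 0.21), while Col3a1 had 1.003 (SE 0.19) and Col13a1 had 1.04 (SE 0.25). Col8a2 read 4.10% and 3.51% in mi5 and 1.94% and 2.50% in WT, with 0.79 (SE 0.24), and Col16a1 read 4.54% and 3.71% in mi5 and 2.04% and 1.99% in WT, with 1.05 (SE 0.23). Both had been among the 3 smallest at P40, and no gene passed the test of the difference between the mutants.
Col13a1 read 3.71% and 3.66% in mi5 and 1.78% and 1.86% in WT, and Col11a2 read 2.72% and 2.94% in mi5 and 1.38% and 1.46% in WT. Col15a1 read 4.89% and 4.68% in mi5 and 2.32% and 2.59% in WT. Col6a3 read 4.60% and 4.46% in mi5 and 2.42% and 2.57% in WT. In all of them mi5 lay well clear of WT.
At the low end Col2a1 read 2.42% and 2.02% in mi5 and 1.07% and 1.29% in WT (0.90, SE 0.36, adjusted p = 0.0375), and Col7a1 read 2.07% and 2.51% in mi5 and 1.21% and 0.996% in WT. Col9a1 read 4.07% and 4.17% in mi5 and 2.20% and 2.40% in WT, Col17a1 4.17% and 3.70% in mi5 and 2.02% and 2.25% in WT, and Col20a1 3.41% and 2.96% in mi5 and 1.58% and 1.58% in WT. The lowest mi5 value of each of these 5 genes exceeded its highest WT value.

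After centring, none of the 44 passed at 4 months in either direction (quasi-binomial model), where 0.0% of all genes were higher and 0.0353% lower. An unadjusted p under 0.05 in that model was found for 5 of the 44, against 1803 of all 19826 genes. The centred log2 odds ratios had a median of 0.03 and ran from -0.25 for Col1a1 to 0.29 for Col6a4 (adjusted p = 0.235). With limma on percent levels 29 were higher after centring, where 21.0% of all genes were higher and 27.7% lower. The rise in points again went with level, with r 0.75 and rho 0.69 against the WT level at P40, a group that this comparison did not use. With log2 odds ratios r was 0.07 and rho 0.02.

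**Figure D4:**
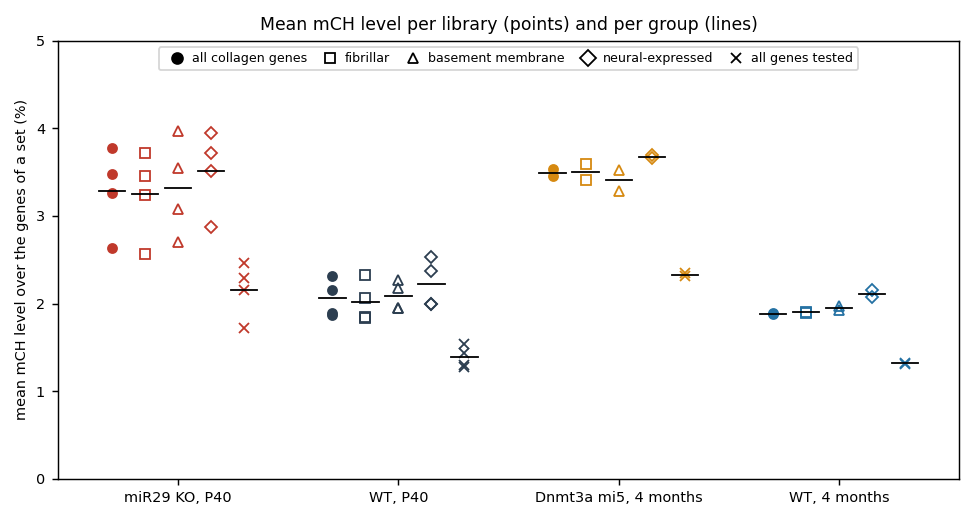
Mean mCH level over all 44 collagen genes, over the fibrillar, basement membrane and neural-expressed genes and over all genes tested, in each library (points) and group (lines), as a percent of non-CG calls. Collagen means lie above those of all genes in every library, at 2.63% to 3.77% in KO and 1.87% to 2.32% in WT at P40.

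The mean over collagen genes exceeded the mean over all genes in every library. The ratio of the 2 means was 1.53, 1.52, 1.51 and 1.53 in KO and 1.48, 1.51, 1.49 and 1.45 in WT at P40, and 1.50 and 1.50 in mi5 and 1.42 and 1.44 in WT at 4 months. Every KO ratio lay above every WT ratio at P40, by as little as 1.513 in KO library 3 against 1.509 in WT library 2, and both mi5 ratios lay above both WT ratios at 4 months. This was not particular to collagen genes. The mean of the 68 genes acting on collagen, described below, was 1.62 times WT in KO and 1.84 times in mi5, against 1.56 and 1.77 over all genes. Genes of the lowest decile of WT level rose less at P40, with a median log2 odds ratio of 0.24 against 0.67 in the highest. The cause was not tested.

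The rises in the mutants were set against each other in one model, as the mi5 effect at 4 months minus the KO effect at P40. None of the 44 genes passed, as measured or after centring, and none of all genes tested did (0.0% in either direction). An unadjusted p under 0.05 in the quasi-binomial model was found for 0 of the 44 as measured and 4 after centring. Of all 19826 genes it was found for 289 as measured and 850 after centring. The mutants were sampled at different ages, and genotype and age cannot be told apart in this difference. With limma on centred percent levels none of the 44 passed, and 0.00504% of all genes were higher. As measured it was positive for 41 of the 44 genes, with a median of 0.21 on the log2 scale beside 0.18 over all genes. The largest was that of Col5a3 at 0.49, with a 95% interval of -0.06 to 1.04, so differences of up to that size lie within the error. For Col4a1 it was -0.02 with an interval of -0.49 to 0.45.

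Between the WT groups, 4 months against P40, no collagen gene passed as measured (quasi-binomial model), where 0.131% of all genes were higher and 0.0% lower. An unadjusted p under 0.05 in that model was found for 1 of the 44 as measured and 10 after centring. Of all 19826 genes it was found for 462 as measured and 2055 after centring. The mean collagen level was 1.89% at 4 months and 2.06% at P40, a difference of -0.172 points that the spread of the P40 libraries covers. After centring, Col6a4 alone was lower at 4 months, where 0.101% of all genes were lower and 1.44% higher. It stood at 1.49% and 1.60% at 4 months and at 1.90%, 2.47%, 2.30% and 2.13% at P40, without overlap (centred log2 odds ratio -0.41, SE 0.07, adjusted p = 0.0032). The call was lost with limma on percent levels, where 0.131% of all genes were higher and 0.00504% lower. It rests on 2 WT libraries at 4 months, and calls of fits with 1 of them left out are not given. Centred values were negative for 30 of the 44 collagens, with a median of -0.05, and for 9112 of all 19826 genes, with a median of 0.02.

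Col4a5 and Col4a6, the 2 X-linked chains of type IV collagen, stood apart from the other 42 genes by library and not by genotype alone. Col4a5, mutated in Alport syndrome, read 3.62%, 3.14%, 1.73% and 2.34% in KO and 1.69%, 1.27%, 1.94% and 1.64% in WT at P40. At 4 months it read 1.74% and 2.89% in mi5 and 1.71% and 1.11% in WT. In each group the lowest value was that of the library with low Y-gene coverage. Col4a6 followed the same course, with 3.76%, 3.58%, 1.85% and 2.60% in KO, 1.85%, 1.37%, 2.05% and 1.83% in WT at P40, 1.93% and 3.21% in mi5 and 1.92% and 1.12% in WT at 4 months.

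Taken against the mean of the other 42 collagen genes of the same library, Col4a5 was at a ratio of 0.481 to 0.574 in the 4 libraries of low Y-gene coverage and 0.832 to 0.959 in the other 8. For Col4a6 the ratios were 0.533 to 0.578 and 0.925 to 1.03. The 2 sets of libraries do not overlap in either gene. In the same 4 libraries Col4a5 had 179 to 240 calls per 1000000 and in the others 93.2 to 110. The mean of the other 42 genes was not lowest in these libraries. It was 3.33% in KO library 3, between the 2.64% and 3.77% of the other KO libraries, and in the other groups the library of low Y-gene coverage held the highest mean, with 2.36% in WT library 2 at P40, 3.61% in mi5 library 1 and 1.93% in WT library 2 at 4 months.

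Both genes rose in the KO with a wide error (log2 odds ratio 0.69, SE 0.26, adjusted p = 0.0252 for Col4a5, and 0.70, SE 0.26, adjusted p = 0.026 for Col4a6). Both calls were lost when KO library 1, 2 or 4 or WT library 1 or 2 was left out, with the 1st percentile of levels subtracted, and with replicate numbers as a block. Within the 3 KO and 3 WT libraries of high Y-gene coverage the ratio of KO to WT was 1.72 for Col4a5, 1.74 for Col4a6 and 1.67 for the collagen mean. Between the 2 libraries of low Y-gene coverage at P40 it was 1.36, 1.35 and 1.41. At 4 months, with 1 library on each side, the ratios of mi5 to WT were 1.69, 1.67 and 1.84 at high coverage and 1.57, 1.72 and 1.86 at low coverage. Both genes were thus higher in the mutant on either side of the split, as was the collagen mean.

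**Figure D5:**
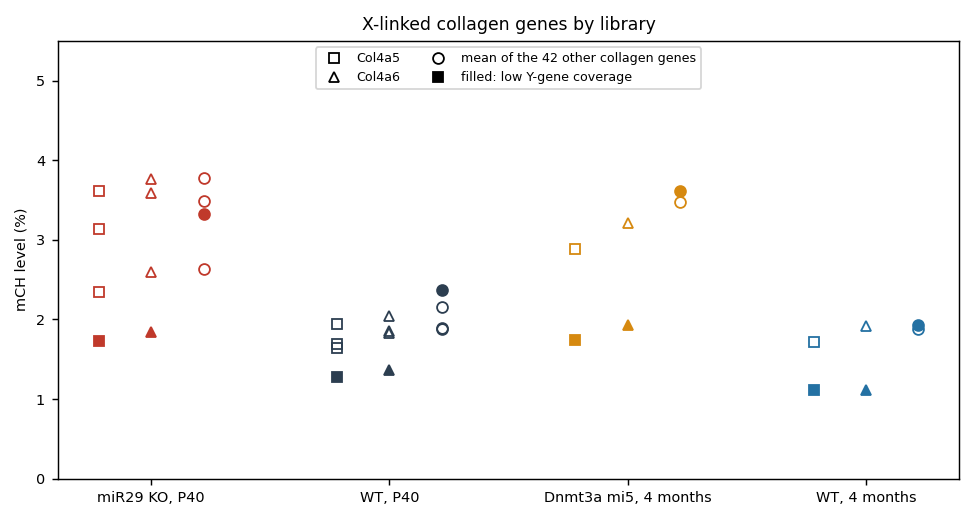
mCH level of Col4a5, Col4a6 and the mean of the other 42 collagen genes by library and group, with libraries of low Y-gene coverage filled. Filled squares and triangles lie lowest in each group, at 1.11% to 1.74% for Col4a5, and the filled circles do not.

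Several collagen genes are neighbours in the genome, and neighbours had similar levels. In 8 pairs no other protein-coding gene lies between them, and the median difference of WT level within these pairs was 0.187 points, against 0.342 over all 946 pairs of collagen genes. Col6a5 and Col6a4, tandem type VI genes, differed by 0.00897 points, Col4a6 and Col4a5 by 0.121 and Col4a1 and Col4a2 by 0.198. The widest pair was Col9a1 and Col19a1 with 0.617 points. Of the 44 genes, 6 overlap another protein-coding gene in the RefSeq table, among them Col4a1 with Col4a2 and Col4a3 with Col4a4, so that part of the calls of these pairs may be counted in both.

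Col4a1 and Col4a2 are read outward from a shared start region on chromosome 8. Their promoter windows are shown because of that region (RefSeq, GRCm38.p6, 300 bases around each start, written 5′ to 3′ on the strand of the gene). The WT levels of these 2 target genes differed by 0.198 points, no less than the median of 0.187 over the 8 neighbouring pairs. The capitals mark the 78 bases the windows share on opposite strands.
Col4a1 (chr8:11312777-11313076, minus strand): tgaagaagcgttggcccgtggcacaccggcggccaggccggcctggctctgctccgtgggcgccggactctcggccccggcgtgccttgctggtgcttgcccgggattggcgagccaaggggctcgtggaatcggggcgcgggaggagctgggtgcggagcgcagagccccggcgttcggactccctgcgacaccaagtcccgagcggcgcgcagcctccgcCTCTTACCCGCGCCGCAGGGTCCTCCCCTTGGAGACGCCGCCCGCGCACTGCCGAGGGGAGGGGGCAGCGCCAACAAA
Col4a2 (chr8:11312555-11312854, plus strand): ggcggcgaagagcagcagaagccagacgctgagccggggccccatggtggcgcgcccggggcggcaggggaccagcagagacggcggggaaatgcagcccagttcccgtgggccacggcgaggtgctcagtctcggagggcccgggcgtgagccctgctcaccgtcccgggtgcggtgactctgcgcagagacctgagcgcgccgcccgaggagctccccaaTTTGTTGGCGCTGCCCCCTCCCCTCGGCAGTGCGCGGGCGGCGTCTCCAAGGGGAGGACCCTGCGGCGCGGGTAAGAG
The windows hold 37 and 33 CG pairs, against a median of 11.5 in the 38 windows found for 35 collagen genes and 7 in all 32851 windows of the table; 92.1% of the collagen windows and 94.6% of all windows hold at least 1. The mCH values above are of the whole gene and say nothing of these windows.

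Of 68 genes tested whose proteins make, bind, receive or degrade collagen, 65 rose in the KO and 55 in mi5 past the threshold, and none fell, where 76.5% of all genes rose at P40 and 58.8% at 4 months. Their median log2 odds ratio was 0.73 at P40 and 0.89 at 4 months, beside 0.65 and 0.83 over all genes and 0.70 and 0.90 for the collagens; differences between the lists were not tested. In biosynthesis and cross-linking 26 of 27 rose at P40 and 21 at 4 months, among receptors 10 of 10 and 7, among matrix partners 24 of 24 and 23, and in degradation 5 of 7 and 4. The degradation counts are near those background shares.

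After centring, 3 of the 68 were higher at P40, where 1.0% of all genes were higher and 3.59% lower, and none at 4 months, where 0.0% of all genes were higher (quasi-binomial model). An unadjusted p under 0.05 in that model was found for 12 of the 68 at P40, against 4095 of all 19826 genes. At 4 months it was found for 4 of the 68, against 1803 of all 19826 genes. Timp3, an inhibitor of matrix metalloproteinases, stood at 4.52%, 3.87%, 3.43% and 2.96% in KO and at 1.86%, 2.37%, 2.12% and 1.73% in WT (centred log2 odds ratio 0.22, SE 0.06, adjusted p = 0.0273). Adamts2, which cleaves the N-propeptide of type I and III procollagen, read 4.36%, 4.04%, 3.75% and 2.84% in KO and 1.96%, 2.54%, 2.18% and 1.92% in WT (0.15, SE 0.03, adjusted p = 0.0163). Loxl2, a collagen cross-linking oxidase, read 3.60%, 3.52%, 3.18% and 2.54% in KO and 1.55%, 2.21%, 1.86% and 1.56% in WT (0.19, SE 0.05, adjusted p = 0.0432).

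The largest rises as measured at P40 were those of Plod3, a lysyl hydroxylase, and Mmp13, a collagenase, both with a log2 odds ratio of 0.95 (SE 0.34 and 0.14). Mmp13 stood at 3.55%, 2.95%, 3.13% and 2.60% in KO and at 1.60%, 1.88%, 1.51% and 1.45% in WT, without overlap, while Plod3 read 1.02%, 1.43%, 0.730% and 0.449% in KO and 0.409%, 0.346%, 0.570% and 0.654% in WT, with overlap. At 4 months Pcolce, an enhancer of procollagen C-proteinase, had 1.43 (SE 0.40) and Bgn, the proteoglycan biglycan, 1.36 (SE 0.55). Pcolce stood at 4.13% and 3.98% in mi5 and at 1.90% and 1.30% in WT, and the X-linked Bgn at 2.11% and 4.79% in mi5 and at 1.26% and 1.29% in WT.
At the other end Timp1, another metalloproteinase inhibitor, had 0.09 (SE 0.38, adjusted p = 0.841) at P40 and 0.03 (SE 0.55, adjusted p = 0.964) at 4 months. Its levels were below 1% in all but 1 library, with 0.790%, 0.531%, 0.471% and 0.460% in KO and 0.600%, 0.427%, 0.534% and 0.532% in WT. Mmp9, a gelatinase, read 1.81%, 1.64%, 1.92% and 1.48% in KO and 1.06%, 1.60%, 1.46% and 1.15% in WT, with overlap, and had 0.39 (SE 0.18, adjusted p = 0.0538) at P40, and Ppib, a prolyl isomerase of the endoplasmic reticulum, had 0.02 (SE 0.58, adjusted p = 0.978) at 4 months.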

How the data were processed

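Whole-genome bisulfite libraries of cortex carried a lambda DNA spike-in (not analysed), per the labels' protocols. Per the submitters' processing notes, BSMAP and mm9 were used, versions not given in the sources used here. Each of the 12 tables the authors deposited lists RefSeq transcripts with the methylated non-CG calls as a count and the total as an expected count, of which 35.7% to 62.2% are whole (within 1e-09), so that totals were rounded. Symbols came from the RefSeq table of GRCm38.p6. Of 36672 rows, 300 had no symbol and 1395 with repeated identifiers were left out. Of 23882 genes, 19826 reached 500 calls in all libraries, which held 399563492 to 732985426 calls.

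One quasi-binomial logistic fit took all 12 libraries with 4 group means, its dispersion moderated with limma 3.58.1 (trend, robust) in R 4.3.3, with Benjamini-Hochberg adjustment over all genes and a threshold of 0.05. Effects are log2 odds ratios. Centring used an offset, the logit of each library's median level. Tables and figures used matplotlib 3.10.9, scipy 1.17.1, pandas 2.3.3 and numpy 2.4.6 in Python 3.11.15, and the model was tested on simulated data. Named genes were the 5 best-known miR-29 targets, the neural-expressed genes, the highest and lowest of each class in WT, the 3 largest and 3 smallest changes per mutant, those past a threshold after centring or in the difference, and that nearest the minimum of calls; of the 68 genes acting on collagen, the 2 largest and 2 smallest changes per mutant and those past the threshold after centring. Members, classes and lists were chosen with earlier results of these data known.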

Additional observations from a re-analysis of the deposited data

How the results depend on the processing

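Centring on the median gene left 0 of 44 collagen genes called at P40 (median log2 odds ratio 0.023) and 0 at 4 months (0.033). On percent levels with limma, centring left 29 called in each mutant and 0 in the age comparison, where 24.2% and 21.0% of all genes were higher. After centring, an offset from the pooled level left 1 called at P40, and limma on log2(percent + 0.5) left 1 at 4 months. The median at 4 months was 0.97 with the 1st percentile subtracted, 0.85 on log2(percent + 0.1) and 0.74 on log2(percent + 0.5). Without the 4 libraries of low Y-gene coverage, 44 were called at P40. At 4 months this left 1 library a group, so calls there and by age are left out, and all 44 log2 odds ratios of mi5 stayed positive.

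Leaving out each library gave 42 to 44 calls at P40 (42 without KO library 1, 2 or 4 or WT library 1 or 2, losing Col4a5 and Col4a6 each time, as with the 1st percentile subtracted), median 0.64 to 0.79, and 0 to 1 after centring. At 4 months it gave 25 to 42 calls, the 25 without WT library 1, median 0.90 to 0.95 and 0 after centring. By age, leaving out a P40 library gave 0 as measured and 1 after centring. The collagen mean differed by 1.06 to 1.45 points at P40, 1.57 to 1.65 at 4 months and -0.233 to -0.0859 by age. The difference between the mutants gave 0 calls whichever P40 library was left out.

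At P40, libraries of the same replicate number did not deviate together more than others did. The r was -0.05 to 0.11 for the same number and -0.14 to 0.21 for other pairs, the highest being KO library 3 with WT library 2. At 4 months r was -0.09 for the same number and 0.09 otherwise. With 2 libraries a group these values mirror each other by construction and cannot show pairing. With the replicate block, 42 genes were called at P40, without Col4a5 and Col4a6, and 42 at 4 months, with Col1a1 and Col6a1. Under the alternatives, 254 values of counts, medians and means stayed within the limits set and 18 moved. The side of the centred values was not stable. With the 1st percentile subtracted, 16 of the 44 were positive and 28 negative at P40, against 26 and 18 without it. At 4 months 20 were positive and 24 negative, against 28 and 16. Calls of single genes also depended on the scale. Limma on centred percent levels gained 29 collagen genes in each mutant that the quasi-binomial model did not call. There 24.2% of all genes were higher at P40 and 21.0% at 4 months. As measured, limma on percent levels gained Col1a1 and Col6a1 at 4 months and lost no collagen gene. The cause was not tested where values above moved.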

Other observations

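Genes that mark the cells of the vessel wall, which make much of the type IV collagen of brain, were measured beside the collagen genes. Over 11 endothelial and mural markers the mean level was 3.27% ± 0.494 in KO and 2.0% ± 0.199 in WT at P40 (SD, n = 4 each), and 3.53% ± 0.0117 in mi5 and 1.96% ± 0.123 in WT at 4 months (SD, n = 2 each). Over all genes tested the means were 2.16% in KO and 1.39% in WT at P40, and 2.33% in mi5 and 1.32% in WT at 4 months. All 11 markers rose at P40 and 10 at 4 months (quasi-binomial model), where 76.5% and 58.8% of all genes rose, with Kcnj8, a potassium channel of pericytes, not past the threshold at 4 months. Pecam1, an endothelial adhesion molecule, averaged 4.49% ± 0.631 in KO and 2.72% ± 0.306 in WT at P40, and Pdgfrb, the PDGF receptor of pericytes, 2.68% ± 0.447 in KO and 1.71% ± 0.132 in WT (SD, n = 4 each). Methylation of these genes in whole cortex does not say how many vessel cells each sample held, and their share was not analysed here.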
